A study of Mus musculus with 6 samples.

Results

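The early chondrocytes described here are cells of young digit cultures that carried transcripts of the cartilage matrix. They were picked from the Day 2 libraries by 2 measured values, the aggrecan gene Acan and the type II collagen gene Col2a1. A cell was kept when it had at least 2 unique molecular identifiers (UMIs, each standing for 1 captured transcript) of Acan and gave at least 0.15% of its UMIs to Col2a1. Replicate A held 790 such cells among 8949 (8.83%, 95% exact binomial interval 8.25 to 9.43) and replicate B held 752 among 9742 (7.72%, 7.20 to 8.27). Together they were 1542 of the 18691 Day 2 cells that passed the cell filter, and of 54126 such cells in all 6 libraries. Intervals of this kind cover counting error only.

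The cultures, called Digits in a Dish (DID), were grown from wildtype CD-1 mouse embryos at E11.5. Distal forelimb mesenchyme of several embryos was pooled, dissociated and plated as a cell suspension, so each culture mixes tissue of different embryos and no embryo can be followed. No gene was altered and no agent was compared. Cells were taken at Day 2, Day 7 or Day 10 of culture, with 2 separate cultures (replicates A and B) at each time, and each culture gave 1 droplet library with counts from the 3′ ends of transcripts. The unit of every test is therefore the library, with n = 2 per class.

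In the developing limb, mesenchymal cells first condense and then begin to make cartilage under the control of the transcription factor Sox9 and its partners Sox5 and Sox6. A chondrocyte surrounds itself with collagen fibrils of types II, IX and XI and with aggrecan, a proteoglycan whose sulfated sugar chains hold water, and link protein (Hapln1) ties aggrecan to hyaluronan. As cartilage matures, cells that stop dividing send the signal Indian hedgehog (Ihh), which acts back on the PTHrP gene Pthlh, and later they enlarge and make type X collagen. Outside the cartilage, Gdf5 marks the cells of the future joints.

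The 6 libraries held 230286310 to 332572927 UMIs over 11518 to 20188 barcodes, of which 8350 to 9742 per library passed the filter of at least 3000 UMIs, at most 7500 genes and at most 25% mitochondrial UMIs. In replicate A at Day 2 the early chondrocytes had a median of 18318 UMIs and the other cells 19668. In replicate B the early chondrocytes were deeper than the other cells, with 21728.5 against 11388.5 UMIs, and the part of that gap in the results was not tested beyond the alternatives with thinned or deep cells. Any pair of libraries shared 16 to 31 barcodes, and the Day 2 pair shared 16. Doublets were not removed. At Day 2, 3 early chondrocytes of replicate A and 2 of replicate B held 2 or more UMIs of muscle, macrophage or embryonic red cell markers. Of the other cells, 4.73% and 3.64% held them, so this count cannot show doublets with contractile, tendon or joint cells. A further 34 and 24 barcodes met the Acan and Col2a1 rule but had more than 7500 genes.

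The values that chose the cells are given as a description. Levels are in CPM, the UMIs of a gene in each 1000000 UMIs of the summed cells. Acan lay at 236 CPM in the early chondrocytes of replicate A and 276 in replicate B, against 9.48 and 10.9 in all other Day 2 cells. Col2a1, which encodes the main fibril collagen of cartilage, lay at 2775 and 2950 CPM against 425 and 444. Per cell, the early chondrocytes had a median of 4 Acan UMIs in replicate A and 5 in replicate B, with 23 and 40 as the highest. Their median Col2a1 share was 0.259% and 0.271% of UMIs, and the highest was 1.82% and 3.04%. Many cells sat close to the limits. Exactly 2 Acan UMIs were found in 234 early chondrocytes of replicate A and 142 of replicate B. Just outside, 263 and 194 cells had enough Col2a1 but 1 Acan UMI. On the other side, 194 and 174 early chondrocytes had a Col2a1 share under 0.20%, and 181 and 137 cells with at least 2 Acan UMIs lay between 0.10% and 0.15%. The gate cuts a continuous range of both genes.

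Against all other Day 2 cells, early chondrocytes were higher for nearly every measured gene of cartilage matrix and of its sulfation, and lower for all listed contractile genes and for 5 of 7 tendon genes. Further chondrocyte markers, whose values were not part of the rule, were higher too. These markers were chosen with earlier results of these data known, so their tests are not independent support. Hapln1, the link protein of aggrecan, stood at 169 and 185 CPM in replicates A and B against 9.40 and 12 in the other cells, a log2 difference of 4.01 ± 0.06 (SE). Cytl1, a secreted protein of young cartilage, stood at 342 and 318 against 37.1 and 33.4 (3.18 ± 0.03). Ihh stood at 42.7 and 41.7 against 2.44 and 2.58 (4.03 ± 0.07). For these 3 genes the 2 replicates of a class lay close together and the classes did not overlap. With 2 values per class such separation is frequent even without a difference, so here and below it is a description only. The adjusted p of edgeR's quasi-likelihood test was at most 6.64e-17 for these 3 genes. In the GRCm38 annotation Acan lies at chr7:79053483-79115099, Col2a1 at chr15:97975602-98004695, Hapln1 at chr13:89539796-89611652, Cytl1 at chr5:37735519-37739820 and Ihh at chr1:74945315-74951672.

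**Figure D1:**
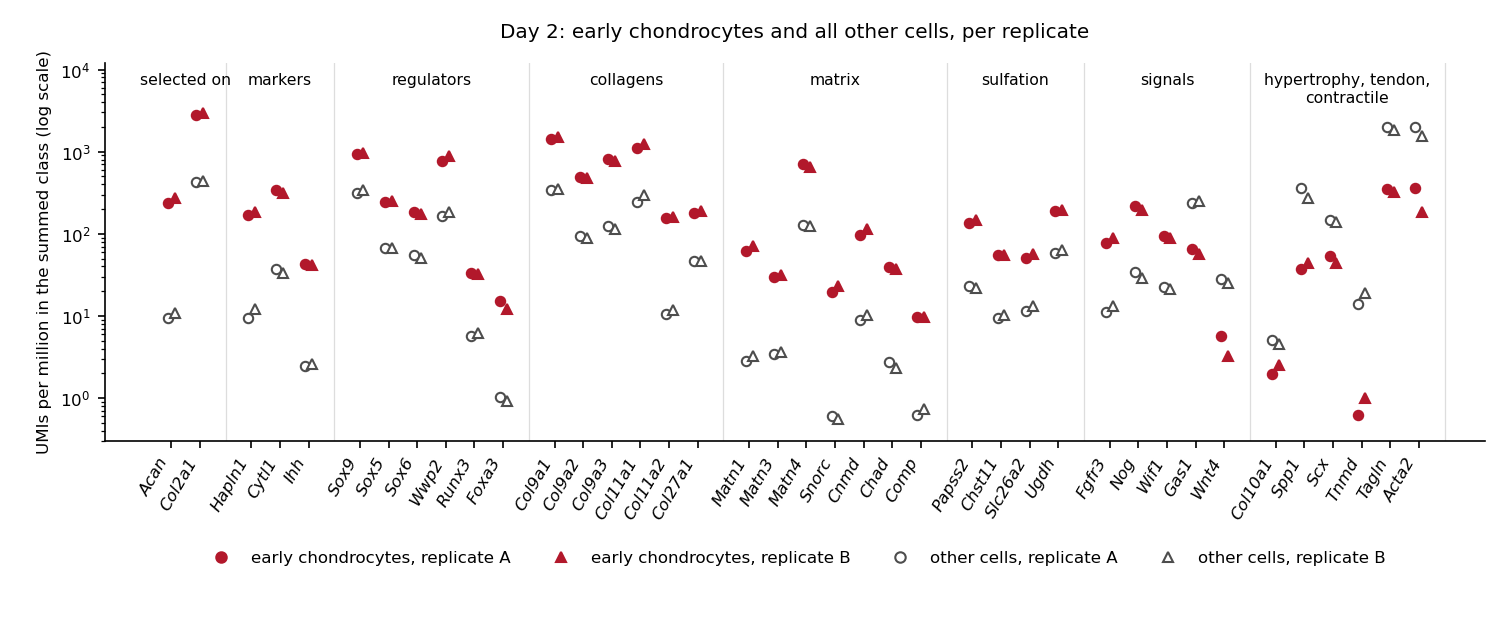
Level of each gene, in CPM of the summed class on a log axis, in early chondrocytes (filled) and in all other Day 2 cells (open), with circles for replicate A and triangles for replicate B. The genes that chose the cells stand at the left. Cartilage genes lie higher in the filled points, such as Snorc at 19.4 and 23.4 against 0.599 and 0.561, and contractile genes lie lower, such as Tagln at 353 and 319 against 1991 and 1843.

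Droplet libraries carry free RNA, so the share of cells with a UMI was compared with muscle cells, which should lack cartilage genes. After every cell was thinned to 3000 UMIs, a Hapln1 UMI was seen in 30.3% and 34.4% of early chondrocytes, in 2.49% and 4.48% of the other cells and in 0.599% and 1.03% of cells with at least 2 UMIs of the muscle factor Myod1. A Cytl1 UMI was seen in 49.1% and 49.7% of early chondrocytes and in 2.40% and 2.05% of the Myod1 cells. An Ihh UMI was seen in 11.4% and 10.5% of early chondrocytes and in 0.674% and 0.912% of the other cells. In the Myod1 cells of replicate A it was seen in 0 of 334 cells, which allows a share of up to 0.898%, and in replicate B in 0.513%. The shares in early chondrocytes were above those in the Myod1 cells for all 3 genes, and the Myod1 cells' own median depth before thinning was 25486.5 and 30191 UMIs. Without thinning, an Ihh UMI was found in 36.2% and 37.6% of early chondrocytes.

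Calls were frequent in this comparison. Of 16806 genes tested, 22.2% were called higher in early chondrocytes and 24.7% lower at an adjusted p under 0.05. With a minimum of a 2-fold difference added, which was chosen after the values were seen, 3.75% were higher and 9.06% lower. Counts in gene lists are to be read against these shares, and the median log2 difference of all genes was close to 0.

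Of 18 tested cartilage transcription factors, 15 were higher and 3 lower, and 10 were higher by at least 2-fold. The median log2 difference of the list was 1.16. Sox9, the regulator that starts cartilage formation, stood at 924 and 976 CPM against 318 and 338 in the other cells (1.49 ± 0.02). Its partners Sox5 (1.85 ± 0.03) and Sox6 (1.70 ± 0.03) differed by similar amounts. The largest differences of the list were those of Foxa3, a forkhead factor of maturing chondrocytes, at 3.75 ± 0.13, and Runx3, a Runt factor of chondrocyte maturation, at 2.41 ± 0.07. Runx2, which drives hypertrophy and bone formation, differed by less, at 43.8 and 46.5 against 30.3 and 33.2 (0.46 ± 0.05). The 3 lower genes were Shox2 (-0.93 ± 0.03), Barx1 (-1.26 ± 0.22) and, by little, Trps1 (-0.09 ± 0.03). Shox2 is a homeobox gene of the proximal limb and Barx1 a homeobox gene of joint regions.

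All 6 of the fibril-forming and fibril-associated cartilage collagens were higher by at least 2-fold, with a median of 2.22. Col11a2, a chain of the type XI collagen at the core of the fibril, stood at 156 and 160 against 10.4 and 11.8 (3.79 ± 0.05). The type IX chains Col9a1, Col9a2 and Col9a3, which sit on the fibril surface, differed by 2.04, 2.36 and 2.68. The replicates of each class lay close together and the classes did not overlap for any of these 4 genes.

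Of 21 tested aggrecan partners and other cartilage matrix proteins, 19 were higher, 17 of them by at least 2-fold, and 1, the small proteoglycan Fmod, was lower. The median was 2.38. Snorc, a small membrane proteoglycan of cartilage, had the largest difference of the list, at 19.4 and 23.4 CPM against 0.599 and 0.561 (5.14 ± 0.12). Matn1, a matrilin that links matrix fibers, stood at 61.3 and 70.7 against 2.84 and 3.25 (4.39 ± 0.06). Chad, a leucine-rich protein that binds cells to collagen, stood at 38.9 and 37.3 against 2.73 and 2.32 (3.87 ± 0.08). Cnmd, an inhibitor of vessel growth in cartilage, differed by 3.42 ± 0.05. Some matrix genes were called but scarce. Comp, a protein that organizes collagen, stood at only 9.74 and 9.83 CPM against 0.625 and 0.735 (3.80 ± 0.15), and Ucma, a marker of later cartilage, at 0.375 and 0.233. For Ucma this is 10 UMIs over both libraries, so its call rests on few counts.

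The start regions of these matrix genes are shown for 2 of them, as 1 example of a window with each of the motifs searched. RefSeq promoters on GRCm38.p6, from 250 bases before to 50 after the start, were matched for 21 of the 27 genes of the collagen and partner lists, as 24 windows. The SOX core letters ACAAT, searched on both strands, were in 0 of 6 collagen windows and 5 of 18 partner windows (27.8%), against 31.0% of all 32851 promoters. The letters TATAAA, searched on both strands, were in 3 of the 24 windows (12.5%) against 13.6% of all promoters. Neither share stood above that of all promoters. The Hapln1 window (chr13:89540386-89540685, plus strand) holds 1 SOX core match and the Chad window (chr11:94564797-94565096, plus strand) holds 1 TATAAA match, shown in capitals. The RefSeq start used for Hapln1 lies downstream of the annotated gene start given above, so its window lies inside the annotated gene. A match is a description of letters and not of binding.
Hapln1: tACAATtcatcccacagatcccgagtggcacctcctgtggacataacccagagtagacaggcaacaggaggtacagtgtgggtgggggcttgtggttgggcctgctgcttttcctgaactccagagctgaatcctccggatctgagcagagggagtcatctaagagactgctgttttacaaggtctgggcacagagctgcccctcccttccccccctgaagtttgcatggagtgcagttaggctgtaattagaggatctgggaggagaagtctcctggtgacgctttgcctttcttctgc
Chad: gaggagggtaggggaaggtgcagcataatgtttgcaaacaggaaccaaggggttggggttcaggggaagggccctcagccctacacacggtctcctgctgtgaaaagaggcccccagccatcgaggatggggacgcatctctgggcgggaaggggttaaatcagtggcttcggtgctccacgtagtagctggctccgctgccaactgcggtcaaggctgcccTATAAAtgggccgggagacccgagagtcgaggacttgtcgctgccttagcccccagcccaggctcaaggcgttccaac

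Genes for the sulfated sugar chains of aggrecan were higher together. Of 23 tested genes of glycosaminoglycan synthesis and sulfation, 22 were higher and 0 lower, 8 of them by at least 2-fold, with a median of 0.71. Papss2, which makes the sulfate donor, stood at 134 and 149 CPM against 23.4 and 21.6 (2.60 ± 0.06). Chst11, which adds sulfate to chondroitin, stood at 54.8 and 55.7 against 9.55 and 10.3 (2.43 ± 0.06). The sulfate transporter Slc26a2 (2.08 ± 0.05), the chain-starting enzyme Csgalnact1 (2.36 ± 0.07) and Ugdh (1.62 ± 0.03), which makes a building block of the chains, were higher as well. Genes of the secretory pathway and of collagen folding differed in the same direction but by less, with 21 of 25 higher, 1 lower and a median of 0.37. The only gene of that list past 2-fold was Creb3l2 (1.08 ± 0.03), a membrane-bound factor that raises the transport of matrix out of the endoplasmic reticulum.

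Signals of the growth plate were present in unequal measure. Of 15 tested genes of the Ihh and PTHrP pathway, 8 were higher and 3 lower, and only Ihh and Ptch1 were higher by at least 2-fold. Ptch1, the Ihh receptor and a target of the pathway, stood at 144 and 148 CPM against 62.5 and 68.3 (1.11 ± 0.03). Gli1, another target, differed by 0.65 ± 0.08. The co-receptor Gas1 was lower, at 66.1 and 56.6 against 238 and 248 (-2.03 ± 0.05). Pth1r, the receptor of PTHrP, was slightly higher (0.53 ± 0.05). Pthlh itself stood at 24.4 in replicate A and 15.6 in replicate B against 15.9 and 15.7, so the difference of 0.28 ± 0.10 came from replicate A (adjusted p 0.0315 in edgeR). In replicate B alone it was -0.05, and with the stricter rule of at least 3 Acan UMIs and 0.3% Col2a1 it turned to -1.33.

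Markers of hypertrophy and bone divided into 2 groups. Of 9 tested genes, 4 were higher and 3 lower. Panx3, a channel protein of prehypertrophic cells, stood at 12.5 and 13.7 CPM against 0.798 and 1.06 (3.78 ± 0.13), and Sp7, a factor of bone formation, at 6.87 and 7.45 against 1.37 and 1.41 (2.32 ± 0.14). Col10a1, the collagen of hypertrophic cartilage, was lower than in the other cells, at 1.94 and 2.56 against 5.16 and 4.51 (-1.14 ± 0.17). Spp1, which encodes the matrix protein osteopontin and is also made by macrophages, stood at 37.3 and 44.5 against 365 and 275 (-3.0 ± 0.08).

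Genes of the FGF, BMP and WNT pathways went in both directions. Among 17 tested FGF genes, 7 were higher and 10 lower. All 4 FGF receptors were higher, led by Fgfr3, a brake on chondrocyte growth, at 78.0 and 88.3 CPM against 11.2 and 13.1 (2.73 ± 0.05). All 4 tested ligands were lower, among them Fgf18 (-3.14 ± 0.15) and Fgf10 (-2.56 ± 0.20). The FGF feedback inhibitors Spry1 and Spry4 were lower too, with Spry1 at 5.0 and 3.78 CPM against 18.3 and 16.3. Some other feedback genes of the list were higher, so these genes had no common direction. Of 30 BMP and TGF-beta genes, 17 were higher and 8 lower. The BMP inhibitor Nog stood at 216 and 196 against 34.3 and 28.8 (2.66 ± 0.03), whereas the ligand Bmp4 was lower (-1.34 ± 0.05). Of 24 WNT genes, 9 were higher and 12 lower. All 5 tested WNT ligands were lower, led by Wnt4 at 5.68 and 3.26 against 28.5 and 25.5 (-2.65 ± 0.11), and the secreted inhibitor Wif1 was higher (2.01 ± 0.04). Other secreted WNT antagonists, Dkk2 and Sfrp2, were lower.

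Position genes of the limb were called lower more often than genes at large. Of 31 tested patterning factors, 6 were higher and 17 lower, with a median of -0.21. By at least 2-fold, 1 was higher and 7 were lower. Of all genes tested, 24.7% were lower and 9.06% lower by at least 2-fold. Hoxa13, which defines the digits and wrist, stood at 26.2 and 21.5 CPM against 22.4 and 21.4 and was not called (adjusted p 0.392 in edgeR). Hoxa11, which belongs to the forearm at later stages, stood at 37.1 and 36.5 against 34 and 33.6 and was not called either (adjusted p 0.234). Tbx5, the forelimb factor, stood at 139 and 141 against 134 and 138. The proximal factors Meis1 (-1.96 ± 0.10) and Meis2 (-1.38 ± 0.05) were lower. Counted cell by cell, 12.5% and 12% of early chondrocytes held UMIs of both Hoxa13 and Hoxa11, 16.8% and 16.4% of Hoxa13 alone, 29.7% and 28.9% of Hoxa11 alone and 40.9% and 42.8% of neither. In the other cells 8.51% and 5.62% held both and 47.2% and 60.7% neither. The median depth was 18318 and 21728.5 UMIs in early chondrocytes and 19668 and 11388.5 in the other cells. After thinning to 3000 UMIs a Hoxa13 UMI was seen in 7.09% and 6.25% of early chondrocytes against 7.26% and 6.01%, and a Hoxa11 UMI in 12.3% and 9.18% against 9.01% and 9.05%. With counts this low a cell without a UMI cannot be called negative.

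Proliferation genes were close to their level in the other cells, and the direction of the list turned with the scaling. Of 22 genes, 2 were higher and 7 lower with TMM factors but 8 higher and 4 lower with total UMIs, 0 of them by 2-fold in either case, with medians of -0.01 and 0.04. Mki67, a marker of cycling cells, stood at 260 and 221 CPM against 201 and 217 (0.16 ± 0.05). The share of cells with an Mki67 UMI was lower in early chondrocytes, at 41.5% and 42.2% against 47.5% and 49.6%, and after thinning to 3000 UMIs it had no common direction, at 27.7% and 25.7% against 26.5% and 30.7%. The groups lay near each other, and in replicate B alone the difference was -0.02. The cell cycle inhibitor Cdkn1c stood at 3679 and 3564 against 2069 and 1826 (0.85 ± 0.03), and the inhibitor Cdkn1a was lower (-1.22 ± 0.03). Of 22 glycolysis and hypoxia genes, 19 were lower and 2 higher, with a median of -0.48. Pgk1, a glycolytic enzyme, stood at 274 and 254 against 382 and 363 (-0.54 ± 0.03). The 2 higher genes were the glucose transporter Slc2a1 (0.60 ± 0.06) and the first enzyme of the path, Hk2 (0.52).

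Markers of the other cells of the culture were mostly lower. All 10 contractile genes were lower, 9 by at least 2-fold. Tagln, an actin-binding protein, stood at 353 and 319 CPM against 1991 and 1843 (-2.56 ± 0.03), and Acta2, smooth muscle actin, at 359 and 185 against 1989 and 1569 (-2.80 ± 0.08). Of 7 tendon genes, 5 were lower, among them the tendon factor Scx at 53.7 and 44.6 against 146 and 137 (-1.58 ± 0.04). Of 10 joint genes, 7 were lower and 2 higher (5 and 2 under total scaling). Of 9 interdigital genes, 5 were lower and 1 higher, led by the retinoic acid enzyme Aldh1a2 (-4.24 ± 0.22). In the fibrous list, 8 of 11 genes were lower and 2 were higher, the small proteoglycans Dcn (1.46) and Lum (1.35), while Col1a1, the collagen of bone and perichondrium, was lower (-0.76).

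All 11 muscle genes were lower, but their summed level in early chondrocytes was 78.8 CPM in replicate A and 13.8 in replicate B, against 856 and 683 in the other cells, so replicate A carried more muscle transcripts. Some of the 11, such as Pax3 and Pax7, had almost no UMIs in early chondrocytes. They entered the test through the other cells, so this count is a description. Macrophage markers summed to 0.125 and 0.291 against 26.3 and 14.0, with C1qa, C1qb, C1qc and Trem2 at 0 in both libraries. Red cell markers summed to 0.312 and 6.87 against 65.9 and 167, and epithelial markers to 15.8 and 11 against 112 and 79.3. Of the 11 genes of the response to dissociation, 6 were higher and 2 lower, with Fos at 967 and 772 against 520 and 426 (0.83 ± 0.02). Of 7 genes of nuclear and ribosomal RNA signal, a sign of RNA quality, 4 were higher and 0 lower, with a median of 0.30. The part of that response and of that signal in the other differences was not tested.

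Some genes known from the neural crest and Schwann cells ran the other way. Sox10, the factor that defines Schwann cells, stood at 2.37 and 2.91 CPM against 0.236 and 0.261 (3.35 ± 0.27), and the receptor Erbb3 at 17.0 and 17.6 against 6.61 and 6.22 (1.39 ± 0.08). Foxd3, the factor of the early neural crest, had no UMI in the early chondrocytes of either library, against a mean of 0.157 in the other cells, which is at least 1.74-fold lower when 3 counts over both libraries are taken as the floor. Foxd3 entered the test only through the other cells, so this is a description.

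**Figure D2:**
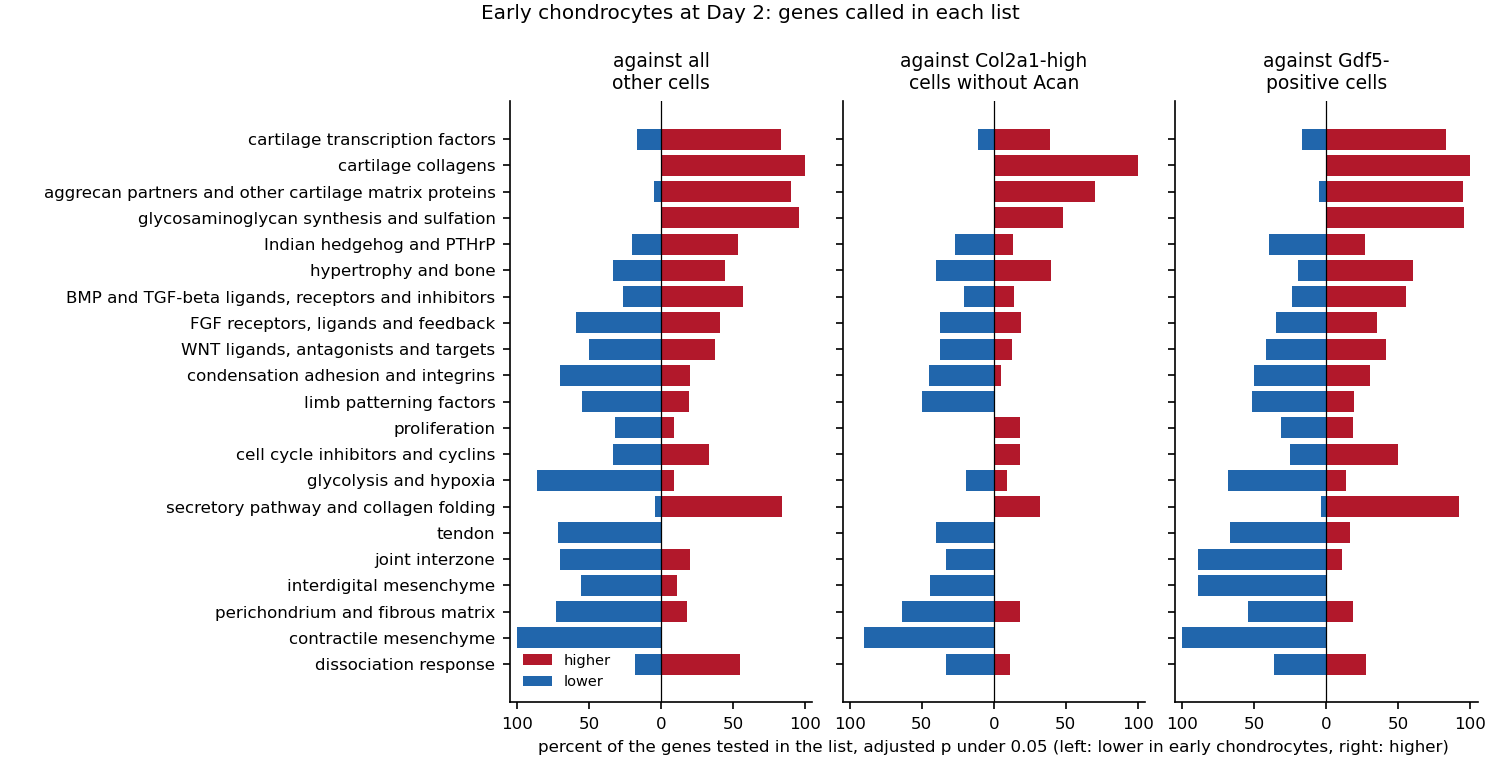
Share of the genes tested in each list that were called at an adjusted p under 0.05, higher in early chondrocytes to the right and lower to the left, for 3 comparisons at Day 2. All 6 cartilage collagens were higher in each comparison, while all 10, 9 of 10 and all 10 contractile genes were lower.

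Early chondrocytes varied among themselves along their Col2a1 share. The cells of each replicate were divided into 3 groups of equal size by that share, which ran from 0.15% to 0.219%, from 0.219% to 0.299% and from 0.3% to 1.82% in replicate A. Median depth was alike over these groups, with 18881, 18483 and 17679 UMIs in replicate A and 22507, 20770.5 and 22402 in replicate B. Snorc went from 5.95 to 19.2 and 34.3 CPM in replicate A and from 4.58 to 16.5 and 51.4 in replicate B. Matn1 went from 32.6 to 39.5 and 115 in replicate A and from 22.9 to 53.6 and 141 in replicate B. Hapln1 in the highest group was 3.54 and 4.08 times its level in the lowest, and Ihh was 2.54 and 3.85 times. Acan, which also chose the cells, was 2.03 and 2.55 times. Both replicates gave the same order for each of these genes. These values are a description of a range within the cells and carry no test.

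Other genes moved little or ran down the same range. Sox9 in the highest group was 1.31 and 1.30 times its level in the lowest, and Matn4, a matrilin already high at this stage, was 1.32 and 1.30 times. Pthlh went down the range in both replicates, from 38 to 20.9 and 13.1 CPM in replicate A and from 28.1 to 14.0 and 3.27 in replicate B. Gas2, a gene that was also far higher in Gdf5-positive cells, went from 75.5 to 37.8 and 15.3 in replicate A and from 52.2 to 29.8 and 11.2 in replicate B. Scx in the highest group was 0.481 and 0.455 times its level in the lowest. The cells with most Col2a1 had least of these 3 genes in both replicates. Transcripts of other cell types moved with the range. The contractile gene Myl9 went from 126 to 67.9 CPM in replicate A and from 102 to 53.3 in replicate B. The muscle genes Ttn, from 33.9 to 1.57, and Actc1, from 58.9 to 3.73, were high in the lowest group of replicate A, while no group of replicate B held more than 0.907 of Ttn or 2.16 of Actc1. Their part in the other differences was not tested. Mki67 had no common order, with a highest-to-lowest ratio of 1.01 in replicate A and 0.730 in replicate B.

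**Figure D3:**
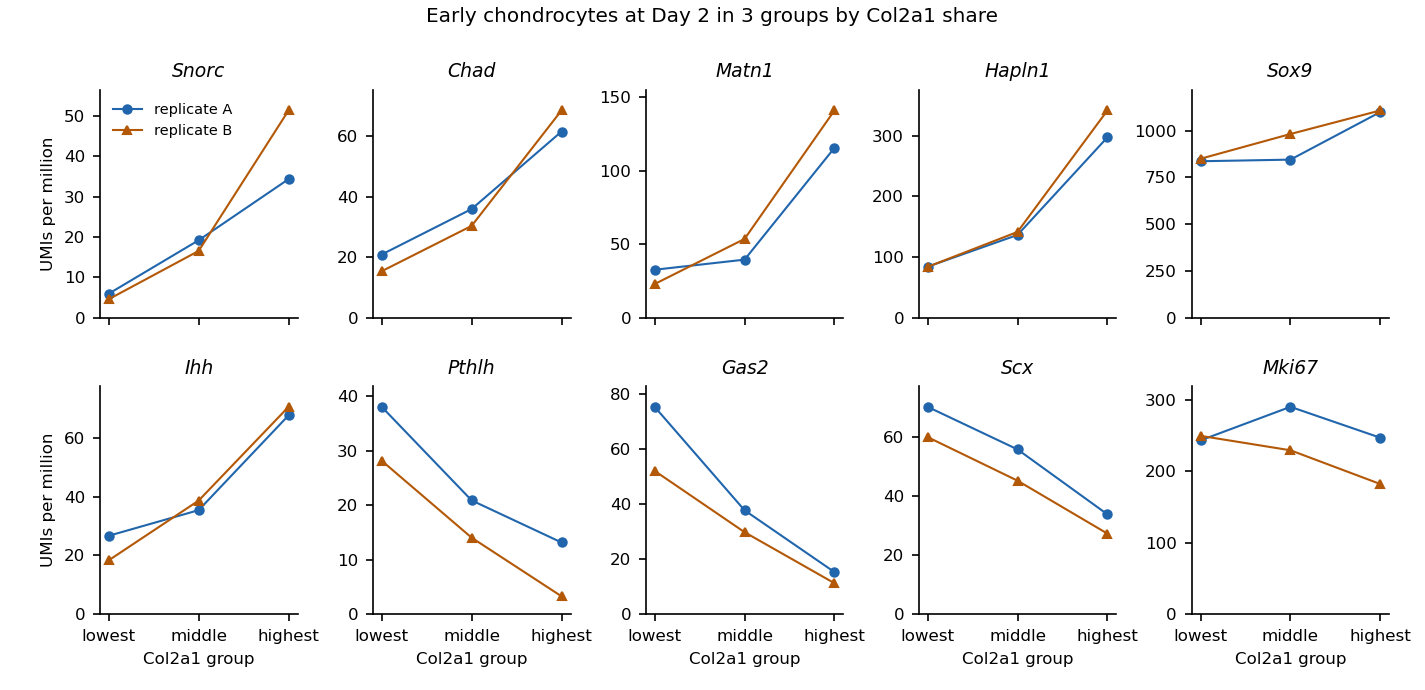
Level of 10 genes, in CPM, in the early chondrocytes of the lowest, middle and highest group by Col2a1 share, with a line per replicate. Snorc, Chad, Matn1, Hapln1 and Ihh climb in both replicates, Pthlh, Gas2 and Scx go down, Sox9 changes little and Mki67 has no common order.

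Early chondrocytes with and without Ihh differed in several other genes, described here where both replicates had the same direction. In replicate A 286 early chondrocytes held an Ihh UMI and 504 had none, and in replicate B these were 283 and 469. The cells with Ihh were deeper, with a median of 21296.5 and 24337 UMIs against 16847.5 and 19413, and richer in Col2a1, with a median share of 0.286% and 0.32% against 0.240% and 0.248%. Muscle transcripts of replicate A sat in the cells without Ihh, with Ttn at 1.51 CPM in cells with Ihh against 21.2 and Actc1 at 4.67 against 36.4. In replicate B these were 0.545 against 0.812 and 1.77 against 1.83. The part of depth, Col2a1 and muscle transcripts in the split was not tested. Pthlh was lower in cells with Ihh, at 7.68 and 2.73 CPM against 36.2 and 25.2. Hhip, a hedgehog-binding inhibitor that the pathway induces, was at 12.2 and 5.45 against 34.4 and 44.9, and Gli1 at 7.83 and 13.2 against 18.1 and 24.7. Ptch1 was nearly level, at 132 and 141 against 152 and 152. Cells that carried Ihh held less of the PTHrP gene and of the targets Hhip and Gli1 in both replicates. These ratios carry no test.

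In the other direction, Fgfr3 was at 107 and 119 CPM in cells with Ihh against 57.3 and 65.4, and Pth1r at 109 and 117 against 67.1 and 69.5. Panx3 was at 16.9 and 19.9 against 9.49 and 9.03. Bambi, a decoy receptor for BMP, was at 304 and 286 against 147 and 138, and Mef2c, a factor of hypertrophy, at 296 and 326 against 191 and 211. Fgfr3, Pth1r, Panx3 and Mef2c were thus higher in the cells with Ihh in both replicates. Other genes of hypertrophy and bone did not share that direction. Runx2 was at 38.4 and 42.5 CPM with Ihh against 47.7 and 49.4, and Spp1 at 31.8 and 31.5 against 41.2 and 54.1. Alpl, at 3.31 and 4.63 against 5.97 and 6.90, was lower too. Col10a1 was scarce, at 1.02 and 0.845 times the level without Ihh. Sp7 was higher, at 9.03 and 12.4 against 5.33 and 3.76, as was the scarce Ibsp. The other FGF receptors did not share one direction: Fgfr1 was at 98.6 and 108 CPM in cells with Ihh against 151 and 167, Fgfr2 was 1.03 and 1.02 times the level without Ihh, and Fgfr4 was higher, at 17.9 and 23.3 against 12.5 and 13.8. Sox9 was 1.07 and 1.14 times and Col9a1 1.01 and 1.05 times the level without Ihh. The dissociation gene Fos was lower in cells with Ihh, at 750 and 581 against 1120 and 915, as was Jun, at 192 and 150 against 464 and 405.

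**Figure D4:**
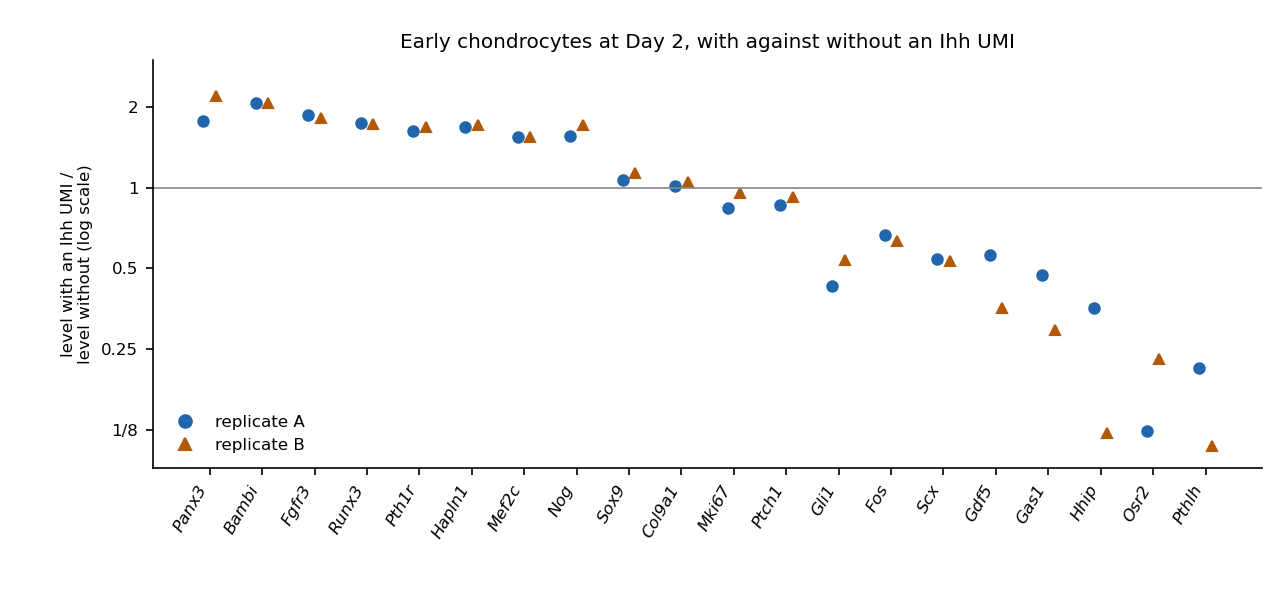
Ratio of the level in early chondrocytes with an Ihh UMI to the level in those without, on a log axis, with circles for replicate A and triangles for replicate B. Panx3, Bambi, Fgfr3, Runx3, Pth1r, Hapln1, Mef2c and Nog lie above 1.5 in both replicates, Sox9 and Col9a1 lie near 1, and Pthlh lies at 0.212 and 0.108.

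A class outside the gate was formed by cells with enough Col2a1 but no Acan UMI, 386 in replicate A and 328 in replicate B. Against them early chondrocytes were higher for further matrix genes. Acan chose the classes, so neither it nor Col2a1 was tested. The cells without Acan were shallower, with a median of 14141.5 and 13335.5 UMIs against 18318 and 21728.5, and the part of depth in the comparison was not tested beyond the deep and thinned cells. They also held less Col2a1, which took a median of 0.195% and 0.185% of their UMIs against 0.259% and 0.271% in early chondrocytes. The part of that difference in the other genes was not tested. Of 12885 genes tested, 5.69% were called higher in early chondrocytes and 5.82% lower. With a 2-fold minimum added, these shares were 0.737% and 0.698%. Of 20 aggrecan partners and matrix proteins, 14 were higher and 0 lower, and all 6 collagens were higher. Hapln1 stood at 169 and 185 CPM against 41.9 and 42.3 (2.09 ± 0.07), Snorc at 19.4 and 23.4 against 2.01 and 2.16 (3.37 ± 0.22) and Matn1 at 61.3 and 70.7 against 10.6 and 10.4 (2.67 ± 0.12). Ihh stood at 42.7 and 41.7 against 17.9 and 14.2 (1.40 ± 0.11). Of 23 sulfation genes, 11 were higher and 0 lower.

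Of 18 transcription factors, 7 were higher, 2 of them by at least 2-fold, and 2 were lower. Those past 2-fold were Runx3, at 32.8 and 32.4 CPM against 15.9 and 16.6 (1.03 ± 0.12), and Foxa3, at 15.1 and 12 against 4.85 and 3.45 (1.72 ± 0.21). Sox9 stood at 924 and 976 CPM against 795 and 810 (0.27 ± 0.05, adjusted p in edgeR 5.69e-06). Runx2 was lower in early chondrocytes, at 43.8 and 46.5 against 57.1 and 58.0 (-0.33 ± 0.08), a call that was lost without the library block, with DESeq2 and with thinned cells. Of 30 patterning factors, 15 were lower and 0 higher, and of 10 contractile genes, 9 were lower. Muscle markers moved with the class in replicate A alone. Of 6 tested, 3 were called higher and 0 lower (0 and 0 under total scaling): Myog, Ttn and Tnnt1. Ttn, the gene of titin, stood at 13.0 and 0.698 against 3.35 and 3.67, and without replicate A all 3 were lower in early chondrocytes. The part of muscle transcripts in the other differences was not tested. The largest lower differences were in Sostdc1, a BMP and WNT antagonist, at 15.4 and 24.4 against 59.8 and 57.8 (-1.56 ± 0.09), and Eln, which encodes elastin, at 21.4 and 20.8 against 46.0 and 77.5 (-1.50 ± 0.09). Fibrous genes were lower for 7 of 11, among them Thbs2 (-1.06) and Col1a1 (-0.71), and higher for Dcn (0.77) and Lum (0.47). Of 22 proliferation genes, 4 were higher and 0 lower.

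The second skeletal class was that of 950 and 637 cells with at least 2 UMIs of Gdf5, a BMP family ligand of the joint, that were not early chondrocytes themselves. Gdf5 stood at 16.4 and 14.4 CPM in early chondrocytes against 158 and 152 and, having chosen the class, was not tested. Both classes carried Sox9, at 924 and 976 against 454 and 481 (1.08 ± 0.03), but differed in most cartilage genes. The share of genes called was 23.7% higher and 22.7% lower of 13827. Of 20 aggrecan partners, 19 were higher and 1 lower, of 6 collagens 6 were higher, and of 23 sulfation genes 22 were higher and 0 lower. Hapln1 stood at 169 and 185 against 7.11 and 6.89 (4.70 ± 0.07) and Ihh at 42.7 and 41.7 against 1.25 and 1.52 (5.0 ± 0.14). Lef1, a factor of the WNT pathway, was higher as well (2.38 ± 0.09). Of 7 nuclear and ribosomal RNA signal genes, 6 were higher and 0 lower (5 and 1 under total scaling). Of 9 muscle genes, 7 were lower and 0 higher. The part of these transcripts in the comparison was not tested.

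Genes of joint and interdigital tissue ran the other way. Of 9 tested joint genes, 8 were lower in early chondrocytes, and of 9 interdigital genes 8 were lower and 0 higher. Aldh1a2 stood at 2.31 and 0.349 CPM against 92.5 and 119 (-6.29 ± 0.11), Wnt4 at 5.68 and 3.26 against 83.8 and 94.8 (-4.27 ± 0.09) and Fgf18 at 1.31 and 1.45 against 32.9 and 28.0 (-4.39 ± 0.15). The exception among joint genes was Erg, an ETS factor of joint and immature cartilage, at 86.1 and 82.6 against 60.3 and 57.8 (0.57 ± 0.05). The digit genes Hoxd13, at 31.2 and 27.1 against 82.1 and 95.9 (-1.55 ± 0.06), and Hoxa13 (-0.93 ± 0.07) were lower in early chondrocytes than in Gdf5-positive cells, and Hoxa11 was higher (0.71 ± 0.07). The 57 and 50 early chondrocytes with 2 or more Gdf5 UMIs stayed in their class. In this comparison and the previous one edgeR found no gene-specific spread beyond a common value, so the p-values rest on a spread shared by all genes. The SEs rest on the same shared spread, and the early chondrocytes stand on 1 side of all 3 Day 2 comparisons.

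The same rule was then applied at the later times. It took in 5804 of 9355 cells (62.0%) and 5187 of 9373 (55.3%) at Day 7, and 2917 of 8350 (34.9%) and 2944 of 8357 (35.2%) at Day 10. A deeper cell meets an Acan minimum more easily, so the shares were also taken after thinning to 3000 UMIs with at least 1 Acan UMI, which gave 4.51% and 4.67% of Day 2 cells, 59.7% and 53.3% of Day 7 cells and 32.7% and 32.9% of Day 10 cells. Few Myod1 cells were left on the later days to check the gate against. Of these, 6 of 20 met the rule in replicate A of Day 7 (30%), against 2 of 334 in replicate A of Day 2 (0.599%), and replicate B of Day 7 held 2 such cells. The order of the days was the same in both counts and the replicates of different days did not overlap. With 2 libraries a day the smallest p of a two-sided exact permutation test is 0.333, so no test was made. Both later days are compared with the same 2 Day 2 libraries.

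Matrix genes rose steeply after Day 2 in cells of the same gate. The gate sets only a minimum, and the later cells lay further above it. Acan was at 236.5 and 276.1 CPM on Day 2, 1664 and 1599 on Day 7 and 2150 and 1874 on Day 10. Col2a1 was at 2775 and 2950, then 13921 and 13464, then 16663 and 15394. The part of that difference in the other changes was not tested. Of 16746 genes tested, 15.0% were called higher at Day 7 by at least 2-fold and 11.0% lower, and 17.9% were higher at Day 10 and 15.4% lower. Changes over days depend on the scaling: the median log2 change of all genes was 0.0459 at Day 7 and 0.0458 at Day 10 with TMM factors, and -0.393 and -0.349 when scaled to total UMIs. The levels in CPM printed here are scaled to total UMIs and the log2 changes to TMM factors. Of 21 matrix proteins, 17 rose by at least 2-fold at Day 7 and 16 at Day 10 (15 and 15 under total scaling), and of 6 collagens 6 and 5 did (5 and 5).

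Hapln1 went from 169 and 185 CPM at Day 2 to 1320 and 1316 at Day 7 and 2029 and 1736 at Day 10, a log2 change of 3.33 ± 0.09 and 3.80 ± 0.09 from Day 2. Snorc went from 19.4 and 23.4 to 1722 and 1798 and then 2027 and 2181 (6.80 and 7.01). Comp went from 9.74 and 9.83 to 738 and 700 and then 2229 and 2019 (6.64 and 8.16). No replicate of a later day overlapped with Day 2 for these genes. Cdsn, the gene of corneodesmosin, an adhesion protein of skin, had no UMI in the Day 2 early chondrocytes and stood at 57.6 and 54.8 at Day 7 and 222 and 192 at Day 10, at least 622-fold and 2294-fold higher when 3 counts over both Day 2 libraries are taken as the floor. Cdsn entered the test only through the later days, so its rise is a description, and these folds depend on the floor chosen.

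Some genes of the early chondrocytes were highest at Day 2. Cytl1 fell from 342 and 318 CPM to 146 and 136 at Day 7 and 60.6 and 64.8 at Day 10 (-0.79 ± 0.06 and -2.0 ± 0.06). Sox9 fell from 924 and 976 to 394 and 395 and then 393 and 370 (-0.83 and -0.92), and Sox5 from 246 and 253 to 92.8 and 90.5 and then 52.0 and 50.2 (-1.0 and -1.89). Vcan, a proteoglycan of the early condensation, fell from 562 and 513 to 45.7 and 37.9 and then 38.6 and 36.2 (-3.25 and -3.45). Erbb3 fell by 5.51 and 6.23 on the log2 scale, and the growth regulator Mycn by 6.47 and 5.43. All of these kept their direction under total scaling. Matn4 was not called at either time (adjusted p 0.0882 and 0.556 in edgeR), but its call depended on the setting: under total scaling it was lower at both (-0.60 and -0.34), and with thinned cells it was higher at Day 10 (0.45). Patterning factors fell by at least 2-fold for 15 of 31 at Day 7 and 16 at Day 10 (23 and 22 under total scaling), while 1 rose at each time (0 and 0 under total scaling). Tbx5 fell from 139 and 141 to 28.2 and 27.5 and then 17.4 and 17.1 (-1.89 and -2.63).

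The Ihh and PTHrP genes took separate courses. Ihh went from 42.7 and 41.7 CPM at Day 2 to 24.6 and 27.0 at Day 7 (-0.27 ± 0.07) and 80.4 and 80.6 at Day 10 (1.33 ± 0.07). After thinning, an Ihh UMI was seen in 11.4% and 10.5% of the Day 2 cells, 4.41% and 4.97% of the Day 7 cells and 12.3% and 12.2% of the Day 10 cells. The share at Day 10 was close to that at Day 2, while the level in CPM was higher. Pthlh fell from 24.4 and 15.6 to 1.15 and 1.57 and then 0.718 and 0.545 (-3.44 ± 0.21 and -4.58 ± 0.24). Pth1r rose from 84.5 and 89.7 to 125 and 122 and then 453 and 432 (0.94 and 2.74).

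Hypertrophy genes rose at both later times. Of 11 tested genes of hypertrophy and bone, 8 rose by at least 2-fold at Day 7 and 11 at Day 10 under both scalings. Some had almost no UMIs at Day 2, such as Dmp1 at 0 and 0.058 CPM and Bglap at 0.062 and 0.291. These entered the test only through the later days, so their rise was fixed by the low-count filter and the 2 counts are a description. Col10a1 went from 1.94 and 2.56 CPM to 20.7 and 19.5 at Day 7 and 280 and 148 at Day 10 (3.59 ± 0.41 and 6.96 ± 0.35), and the Day 10 replicates differed from each other. Ibsp, a protein of mineralizing matrix, stood at 0.562 and 2.33, then 4.40 and 6.18, then 558 and 589 (2.28 ± 0.34 and 9.0 ± 0.24). Panx3, already above the other cells at Day 2, went from 12.5 and 13.7 to 77.0 and 70.1 and then 246 and 231 (2.93 and 4.58). Proliferation genes fell by at least 2-fold for 21 of 22 at Day 7 and 22 at Day 10. Mki67 went from 260 and 221 to 60.4 and 57.0 and then 28.2 and 32.1 (-1.60 and -2.60). Glycolysis and hypoxia genes rose by at least 2-fold for 20 of 22 at Day 7 and 19 at Day 10 (16 and 15 under total scaling), with the hypoxia target Bnip3 going from 51.5 and 53.5 to 306 and 343 and then 353 and 326 (3.07 and 3.09). Markers of other cell types moved as well. Macrophage markers in the gated cells summed to 0.125 and 0.291 CPM on Day 2, 8.25 and 5.86 on Day 7 and 18.1 and 18.7 on Day 10, and fibrous genes rose by at least 2-fold for 9 of 11 at both times (8 and 9 under total scaling). The part of those transcripts in the other changes was not tested. Signs of RNA quality moved too. Of 7 nuclear and ribosomal RNA signal genes, 4 rose by at least 2-fold at Day 7 under both scalings, and at Day 10 1 rose and 1 fell by that much (1 and 2 under total scaling). Gm42418, whose reads come largely from ribosomal RNA, was at 6673 and 9989 CPM on Day 2, 28657 and 28817 on Day 7 and 2931 and 2797 on Day 10. Lars2 was at 175 and 236, then 1286 and 1363, then 185 and 227. Both stood apart in the Day 7 libraries, and their part in the other changes was not tested.

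**Figure D5:**
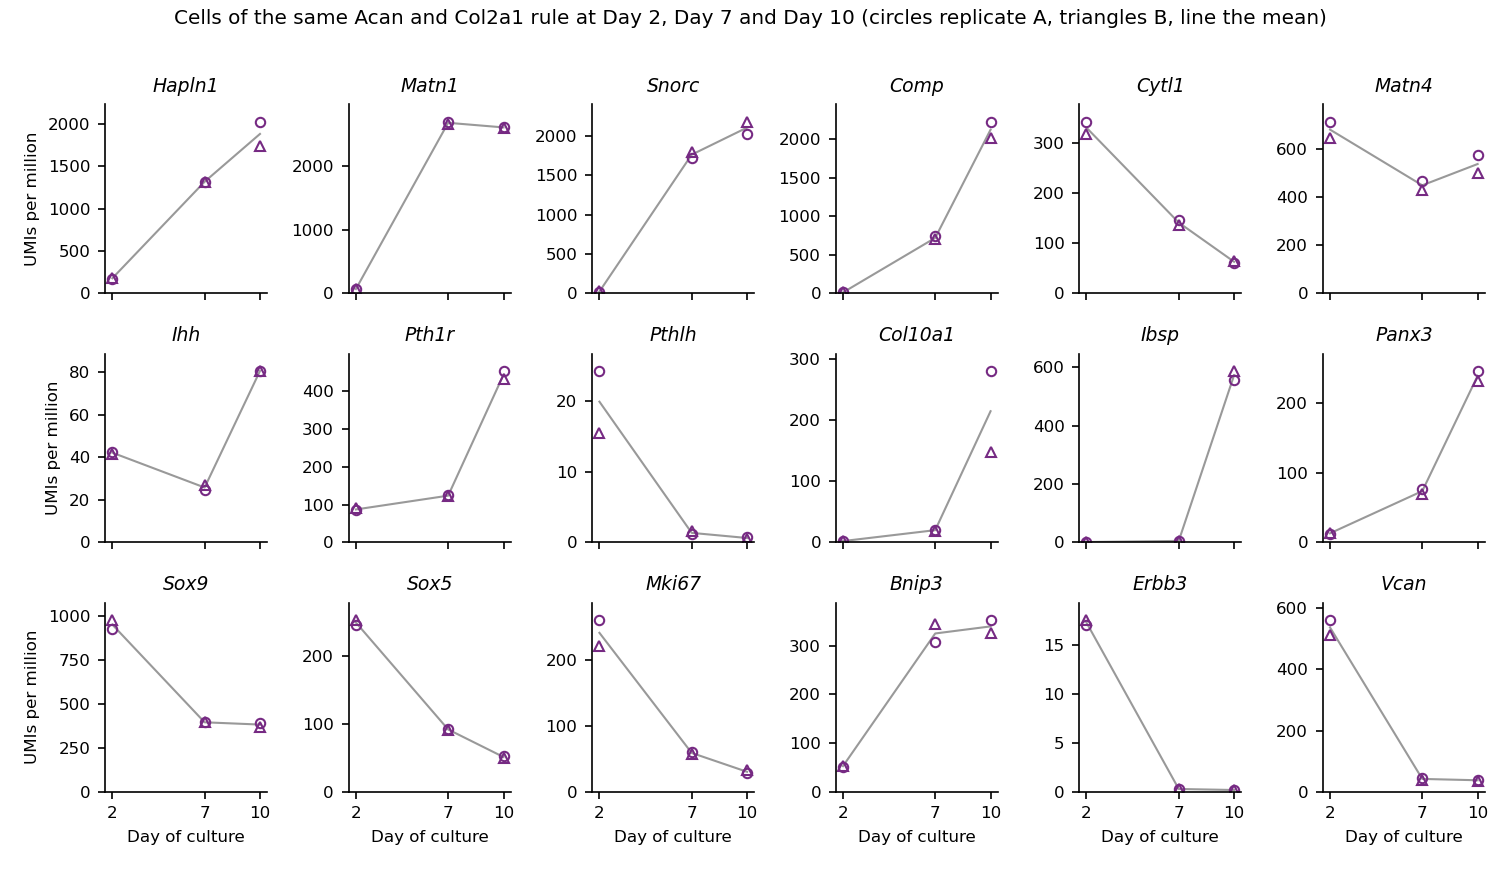
Level of 18 genes, in CPM, in cells of the same Acan and Col2a1 rule at Day 2, Day 7 and Day 10, with circles for replicate A, triangles for replicate B and a line through the mean. Hapln1, Snorc and Comp climb from Day 2, Cytl1, Pthlh, Sox9, Sox5, Mki67, Erbb3 and Vcan go down, Ihh dips at Day 7, and Col10a1 and Ibsp are high only at Day 10.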

How the data were processed

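Single-cell libraries of 6 DID cultures (Day 2, Day 7 and Day 10, replicates A and B) were used. The authors aligned reads to GRCm38/mm10 with Cell Ranger 6.1.2 (STAR) and deposited matrices of whole UMI counts per gene and barcode, not normalized; Seurat 4.1.0 is among the tools in their processing notes. Barcodes with at least 3000 UMIs, at most 7500 genes and at most 25% mitochondrial UMIs were kept.

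Counts were summed per library and class. Sums were tested with edgeR 4.0.16 (quasi-likelihood, TMM factors, filterByExpr, R 4.3.3), with the library as a block at Day 2 and the day alone over 6 libraries for later times. Benjamini-Hochberg adjustment covered all genes tested, and a gene was called at an adjusted p under 0.05. DESeq2 1.42.0, other scalings, other gates, thinned cells and single replicates were alternatives. Scripts ran on Python 3.11.15 and were tested on simulated data. Levels are CPM of the class total. Promoters came from RefSeq.

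The cells and the gene lists were chosen with earlier results of these data known. Most genes named in the text come from the lists. The 10 highest and 10 lowest called genes per comparison, with at least 10 CPM and no overlap, were also picked out. The text names only some of them. P-values at Day 2 rest on how the class difference varied between the 2 libraries, since the library was a block. Those over days rest on the spread between the 2 libraries of a day, pooled over all days. In both, much of the spread used for a gene was borrowed from other genes. A result on 1 gene of the lists is not reported here.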

Additional observations from a re-analysis of the deposited data

How the results depend on the processing

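Of 1804 values of single genes under other settings, over the 5 comparisons, 1731 were counted as unchanged. Of the rest, 43 lost a call, 5 gained one, 10 of single replicates moved further and 15 turned. Unchanged meant the same call and, for called genes, the same direction. Uncalled genes could change direction and still count, as for Tbx5 and for Matn4 at Day 10. A single replicate counted when it lay within the spread of the 2 replicates. The main value lies near the middle of the 2, so most of these values pass by construction and say little on stability. Against all other Day 2 cells, Pthlh turned with the stricter rule (-1.33) and ranged from -0.0525 to 0.5685 over single replicates, Tbx5 with the stricter rule (-0.24), and Mki67 with the stricter rule (-0.0183), ranging from -0.0165 to 0.3290 over single replicates. Against Col2a1-high cells without Acan, Ttn turned with the stricter rule (-1.74), with thinned cells (-0.14) and with possible doublets left out (-1.41), and Tnnt1 under the same settings (-0.91, -0.58 and -0.20). Over single replicates Myog ranged from -1.5345 to 2.7304, Ttn from -2.1028 to 1.9279 and Tnnt1 from -1.2830 to 1.9149. Matn4 at Day 10 turned under total UMI scaling (-0.34) and was called higher with thinned cells (0.45). The cause was not tested.

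Counts of called genes moved more, and fewer UMIs enter the sums of thinned cells. Against all other cells 3724 genes were higher and 4153 lower; these were 1427 and 1800 with thinned cells, 1832 and 2624 with DESeq2, and 2462 higher without the library block. With a 2-fold minimum, 631 and 1522 became 369 and 747 with thinned cells, and 979 were lower with DESeq2. Against Col2a1-high cells without Acan, 733 and 750 became 437 and 482 with at least 1 Acan UMI, 289 and 316 with thinned cells, 261 and 303 without the replicate block, and 156 and 147 with DESeq2; 1246 were higher with the stricter rule and 487 with total UMI scaling. Against Gdf5-positive cells, 3281 and 3138 became 1400 and 1266 with thinned cells and 1354 and 1140 with DESeq2, and 2183 were higher without the block. At Day 7, 2511 rose and 1848 fell by 2-fold, against 1599 and 3576 with total UMI scaling, and 1096 fell with thinned cells. At Day 10, 2586 fell, against 4109 with total UMI scaling and 1578 with thinned cells.

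The labels do not say whether the letters A and B pair cultures of different days. Deviations of the replicates hardly correlated across days (0.0859, -0.0513 and -0.0488), which cannot settle it. With the replicate block 2474 genes rose and 1829 fell by 2-fold at Day 7 and 2972 and 2578 at Day 10. The mean share of gated cells, 8.27% at Day 2, was 4.59% after thinning with at least 1 Acan UMI and 2.67% with the stricter rule. It was 58.7% at Day 7 and 51.6% with the stricter rule. At Day 10 it was 35.1%, with 32.8% after thinning with at least 1 Acan UMI, 30.4% with the stricter rule and 34.7% with the ribosomal limit. With 2 cultures per time, small differences rest on few samples.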
